A study of Rattus norvegicus with 10 samples.

Results

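Cytoplasmic dynein and dynactin subunits were examined in RNA of axons grown from embryonic and adult rat sensory ganglia. The members were 10 listed genes: the dynein heavy chain Dync1h1, the intermediate chains Dync1i1 and Dync1i2, the light intermediate chains Dync1li1 and Dync1li2, the light chains Dynll1, Dynlt1 and Dynlt3, and the dynactin subunits Dctn1 and Dctn2. Every probe set that the platform annotation pairs with a single one of these symbols was taken. A probe set is a group of short array probes that reports 1 transcript or a few related ones. The rule gave 10 probe sets of 9 genes, out of 20826 single-symbol probe sets of 14217 genes and 31042 probe sets that are not controls. Dync1li1 had 2 probe sets and each of the other 8 measured genes had 1. The only probe set listed for Dynll1 also carries another symbol, so this light chain was not analysed here.

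The arrays held axonal RNA from rat dorsal root ganglia, which contain the cell bodies of sensory neurons. There were 5 arrays from embryos at embryonic day 16 and 5 from adult animals, called biological replicates in the labels. No strain, sex, adult age, genotype or treatment is given in the labels. In both stages ganglion explants grew for 4 days in a chamber with compartments, and axons over 1 cm long were collected from the outer compartment, so the axons of either stage had grown out in culture. Each sample title names a rat embryo or an adult rat, and nothing in the labels says whether animals were pooled. Expression is on the log2 scale of the deposited RMA values, so a difference of 1 is a doubling.

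Cytoplasmic dynein walks towards the minus ends of microtubules. In an axon these ends point to the cell body, so dynein drives retrograde transport of signalling endosomes, autophagosomes, mitochondria and injury signals. The heavy chain holds the motor, the intermediate, light intermediate and light chains assemble on its tail and connect it to cargo, and dynactin is the large partner complex that makes movement processive. Axons contain mRNAs of some motor components and can translate them locally.

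None of the 10 dynein and dynactin probe sets differed between stages at an adjusted p of 0.05 in the limma fit, which called 258 of all 31042 probe sets, 0.831%, with 0.457% lower and 0.374% higher in adult axons. The median change of the 10, adult minus embryonic, was -1.02, against 0.00 over all probe sets. The change was negative for 8 of the 10, against 49.8% of all probe sets. These 8 include the Dync1li1 probe set 1370576_at (-0.22), which is taken below to give no measure of the gene. The other Dync1li1 probe set had a change of 0.79. At an unadjusted p under 0.05, 4 were lower in adult axons (Dync1i1, Dynlt1, Dctn2 and Dctn1) and 0 were higher, where 5.39% of all probe sets were lower and 4.45% higher by that rule. The stages overlapped for each of the 10 probe sets, and did not overlap for 2.58% of all. Of the members 6 were above background (defined with the arrays below) on all 10 arrays, and 3254 of all probe sets were. Of those 3254, 57.3% had a negative change, 13.0% were lower at an unadjusted p under 0.05 and 5.53% did not overlap. Their median change was -0.12. Among the 6 members above background on all 10 arrays, Dctn1 alone was lower at an unadjusted p under 0.05. Dync1li1 (1399090_at) and Dynlt3 of these 6 had a positive change. Dync1i1, Dynlt1 and Dctn2 were not among the 6, so the shares of the 3254 do not apply to them. The members were chosen with earlier results of these data known, so the counts describe these genes. Leaving out embryonic replicate 4 moved the count past the threshold from 0 to 1, namely Dync1i1.

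**Figure D1:**
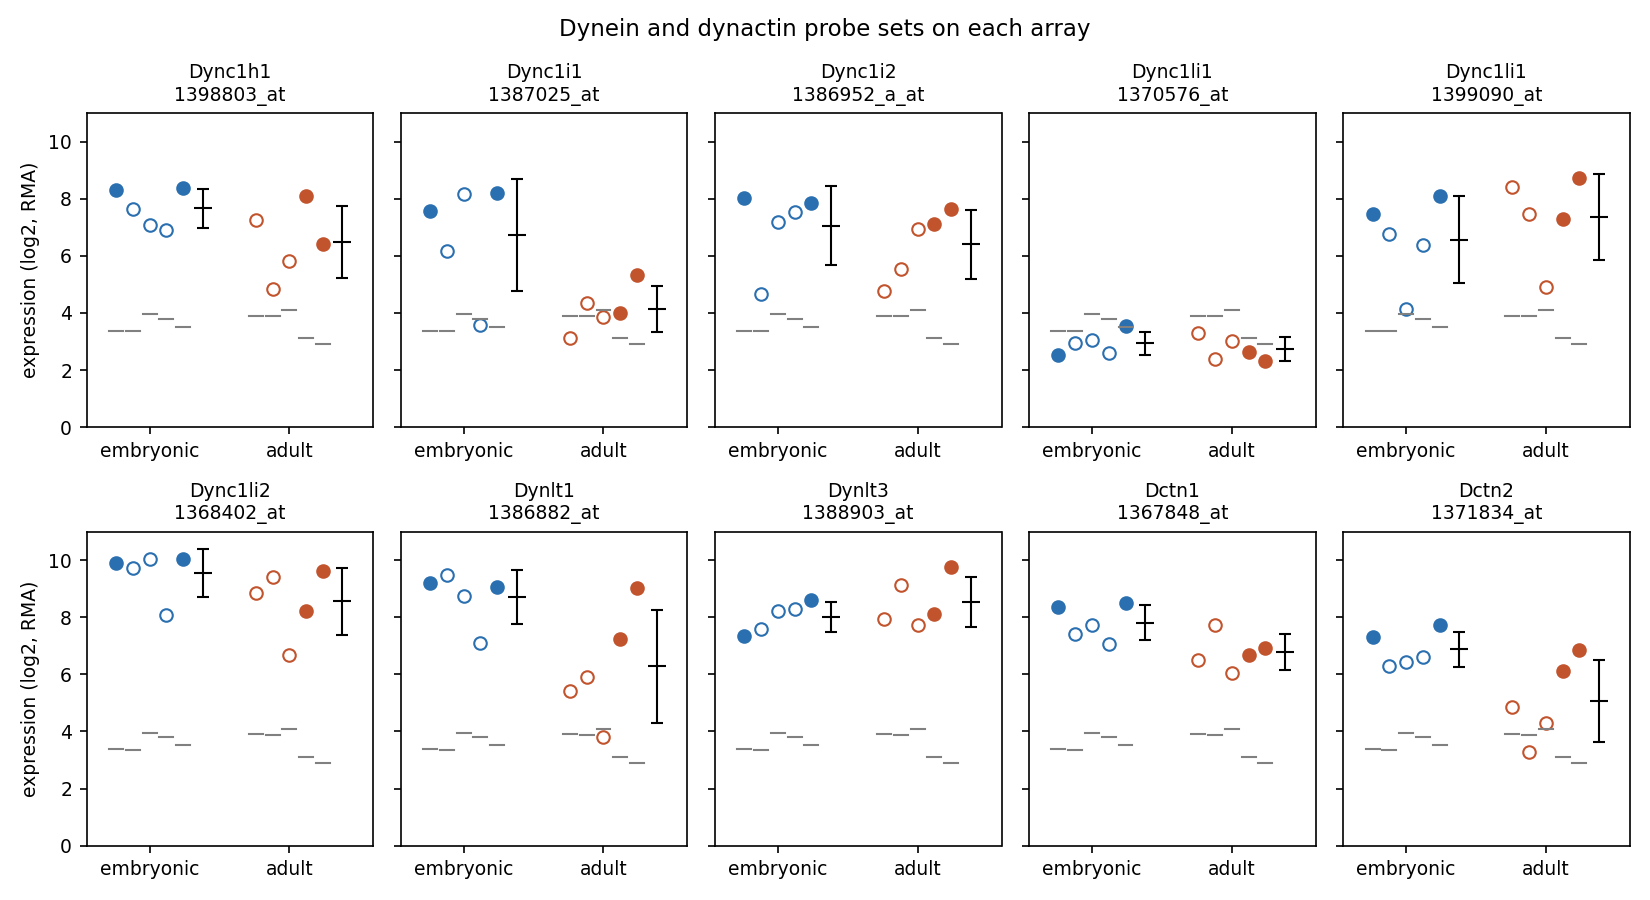
Expression (log2, RMA) of each dynein and dynactin probe set on the 5 embryonic (blue) and 5 adult (orange) arrays, in replicate order from left to right; filled points are arrays of wide spread, open points arrays of narrow spread, black bars the mean ± SD, and grey ticks the background level of each array. Each probe set overlaps between stages, and 1 probe set of Dync1li1 lies at or below the background level on 9 of 10 arrays.

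Some measures of the whole arrays separated or tracked the stages. The background level was set on each array by 99 probe sets of 84 genes known from other tissues (95th percentile). It lay between 2.91 and 4.10 on the 10 arrays, and 7474 to 15587 probe sets exceeded it. The values of 4 arrays were spread more widely (SD 1.96 to 2.09) than those of the other 6 (SD 1.52 to 1.71). The 4 wide arrays are replicates 1 and 5 of the embryonic stage and replicates 4 and 5 of the adult stage, and the 6 are called narrow arrays below. Poly-A control transcripts, added before labelling, averaged 2.0 to 2.65 in the embryonic and 7.75 to 11.99 in the adult stage, so a difference in labelling cannot be told apart from stage. Sensory neuron markers had 5 of 20 probe sets lower in adult axons past the threshold and 0 higher. Their mean levels were 5.80 to 7.68 on embryonic and 4.73 to 6.12 on adult arrays. Of all probe sets 0.457% were lower and 0.374% higher past that threshold. Of the 20 sensory neuron probe sets 9 were above background on all 10 arrays, including 1 each of Prph, Nefm and Gap43. Above background on no array were 3 of the 20, including the other Gap43 probe set. Macrophage markers had 8 of 17 probe sets higher past that threshold and 0 lower, with mean levels of 3.17 to 5.32 and 6.40 to 7.98. Cd74 exceeded background on 0 of 5 embryonic arrays, Adgre1 on 1 of 5 and Lyz2 on all 5. Blood cell markers had mean levels of 3.91 to 5.04 on embryonic and 2.38 to 3.66 on adult arrays, with a negative change for 8 of 8 probe sets and 1, of the globin gene Hbe1, past the threshold (limma adjusted p = 0.011). Fibroblast markers had 0 of 12 past the threshold in limma and 3 at an unadjusted p under 0.05, where 9.84% of all probe sets were. They averaged 6.62 and 6.66 on the wide adult arrays against 3.35 to 5.16 on the other adult arrays. Markers of neuron cell bodies, Schwann cells and satellite glia had 0 probe sets past the threshold. At an unadjusted p under 0.05 in limma, 3 of 12 neuron cell body probe sets were lower and 2 higher. Schwann cell markers had 0 of 15 lower and 2 higher, and satellite glia markers 0 of 12 lower and 1 higher. Of all probe sets 5.39% were lower and 4.45% higher by that rule. In the same order 2 of 12, 3 of 15 and 2 of 12 were above background on all 10 arrays, as were 3254 of all 31042. The part of other cells or of cell bodies in the dynein values was not tested. In these bulk samples fewer axons and less RNA per axon cannot be told apart.

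The heavy chain Dync1h1 (1398803_at), which carries the motor domain, was above background on all 10 arrays. Its embryonic values were 8.32, 7.65, 7.07, 6.90 and 8.38 in replicates 1 to 5, and its adult values were 7.24, 4.83, 5.83, 8.09 and 6.41. Adult replicates 2, 3 and 5 lay below every embryonic array, while adult replicates 1 and 4 lay within the embryonic range. The means were 7.66 ± 0.69 (SD, n = 5) and 6.48 ± 1.26, a change of -1.18 with a 95% interval of -2.47 to 0.10 (limma adjusted p = 0.56). The change was -1.10 within the wide arrays and -1.24 within the narrow arrays, and -0.77 without adult replicate 2.

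The intermediate chains bind dynactin and the light chains, and Dync1i1 is the form found mainly in neurons whereas Dync1i2 is made in most cells. Dync1i1 (1387025_at) had embryonic values of 7.58, 6.17, 8.15, 3.57 and 8.19, and adult values of 3.12, 4.33, 3.87, 4.00 and 5.34. All adult arrays lay below 4 of the 5 embryonic arrays, and embryonic replicate 4 lay among the adult values and below its background level. Its level exceeded background on 4 of 5 embryonic arrays and 3 of 5 adult ones. This was the largest change among the members, -2.60 ± 0.83 (SE; means 6.73 ± 1.95 and 4.13 ± 0.81, SD, n = 5; 95% interval -4.44 to -0.76; limma adjusted p = 0.25). Without embryonic replicate 4 the change was -3.39 and passed the threshold (limma adjusted p = 0.018), while the 9 other omissions left it above 0.05. On that array 5 of the 10 dynein and dynactin probe sets had their lowest embryonic value, a count not made over all probe sets. The sensory neuron markers averaged 5.80 there, their lowest embryonic mean. The Dync1i1 change was -3.22 within the wide arrays and -2.19 within the narrow arrays.

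Dync1i2 (1386952_a_at) had embryonic values of 8.02, 4.68, 7.19, 7.55 and 7.86, and adult values of 4.76, 5.53, 6.95, 7.10 and 7.65. The stages spanned nearly the same range, and embryonic replicate 2 lay below every adult array. It was above background on all 10 arrays, with means of 7.06 ± 1.37 and 6.40 ± 1.20 and a change of -0.66 (95% interval -2.26 to 0.94; limma adjusted p = 0.89). The size of this change rested on single arrays: it was -0.25 without adult replicate 1, -0.44 without adult replicate 2, -0.42 without embryonic replicate 1 and -1.25 without embryonic replicate 2. With cyclic loess scaling it was -0.36. Its name marks a probe set that can report several transcripts of the gene.

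The light intermediate chains contact the adaptors that link dynein to its cargo. Dync1li2 (1368402_at) had embryonic values of 9.89, 9.73, 10.05, 8.07 and 10.02, and adult values of 8.85, 9.41, 6.67, 8.21 and 9.61. All but 1 of the embryonic arrays lay above every adult array, and embryonic replicate 4 lay below 4 of the adult arrays. The change was -1.0 (95% interval -2.30 to 0.30; means 9.55 ± 0.84 and 8.55 ± 1.18; limma adjusted p = 0.68). It was -0.53 without adult replicate 3 and -0.58 with cyclic loess scaling.

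Dync1li1 was read by 2 probe sets that gave different pictures. The first, 1399090_at, had embryonic values of 7.45, 6.78, 4.12, 6.38 and 8.09 and adult values of 8.41, 7.47, 4.90, 7.28 and 8.72. Adult replicates 1 and 5 lay above every embryonic array and the other 3 within the embryonic range. The change was 0.79 (95% interval -1.07 to 2.65; limma adjusted p = 0.88). It was 0.23 within the wide arrays and 1.16 within the narrow arrays. Without adult replicate 3 it was 1.41, without adult replicate 5 it was 0.45, and without embryonic replicate 3 it was 0.18. The second, 1370576_at, exceeded background in embryonic replicate 5 alone, with values from 2.54 to 3.55 and from 2.30 to 3.28, so its change of -0.22 (limma adjusted p = 0.92) gives no measure of the gene.

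Light chains of the Dynlt family sit on the intermediate chains and can bind cargo. Dynlt1 (1386882_at) had embryonic values of 9.21, 9.47, 8.73, 7.08 and 9.04, and adult values of 5.43, 5.89, 3.80, 7.24 and 9.01. Adult replicates 1 to 3, the narrow arrays, lay below every embryonic array, and adult replicates 4 and 5, the wide arrays, lay within the embryonic range. The means were 8.70 ± 0.95 and 6.28 ± 1.96, a change of -2.43 ± 0.86 (SE; 95% interval -4.33 to -0.53; limma adjusted p = 0.32). It was -3.38 within the narrow arrays (limma adjusted p = 0.17) and -1.0 within the wide arrays (limma adjusted p = 0.60). Adult replicate 3 was the only array on which Dynlt1 was not above background.

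Dynlt3 (1388903_at) had embryonic values of 7.33, 7.60, 8.21, 8.27 and 8.61, and adult values of 7.95, 9.11, 7.71, 8.10 and 9.75. Adult replicates 2 and 5 lay above every embryonic array and no adult array lay below the embryonic range. It was above background on all 10 arrays, with a change of 0.52 (95% interval -0.43 to 1.47; means 8.0 ± 0.52 and 8.52 ± 0.87; limma adjusted p = 0.82). It was 0.21 without adult replicate 5 and 0.90 with cyclic loess scaling.

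Dctn1 encodes p150Glued, the dynactin subunit that binds microtubules and the dynein intermediate chains. Its probe set (1367848_at) had embryonic values of 8.35, 7.41, 7.73, 7.06 and 8.51, and adult values of 6.50, 7.73, 6.05, 6.66 and 6.92. All but 1 of the adult arrays lay below every embryonic array, and adult replicate 2 lay within the embryonic range. The change was -1.04 ± 0.38 (SE; 95% interval -1.89 to -0.19; means 7.81 ± 0.62 and 6.77 ± 0.62; limma adjusted p = 0.35). It was -1.64 within the wide arrays (limma adjusted p = 0.11) and -0.64 within the narrow arrays (limma adjusted p = 0.75).

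Dctn2, or dynamitin, belongs to the shoulder that joins p150Glued to the actin-related filament of dynactin. Its probe set (1371834_at) had embryonic values of 7.32, 6.29, 6.43, 6.60 and 7.72, and adult values of 4.84, 3.27, 4.29, 6.12 and 6.85. Adult replicates 1 to 4 lay below every embryonic array, and adult replicate 5 lay above 3 of the embryonic arrays. The change was -1.80 ± 0.63 (SE; 95% interval -3.19 to -0.42; means 6.87 ± 0.62 and 5.07 ± 1.43; limma adjusted p = 0.31). It was -2.31 within the narrow arrays (limma adjusted p = 0.11) and -1.04 within the wide arrays (limma adjusted p = 0.34). With wide and narrow arrays as a block in limma its adjusted p was 0.054.

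**Figure D2:**
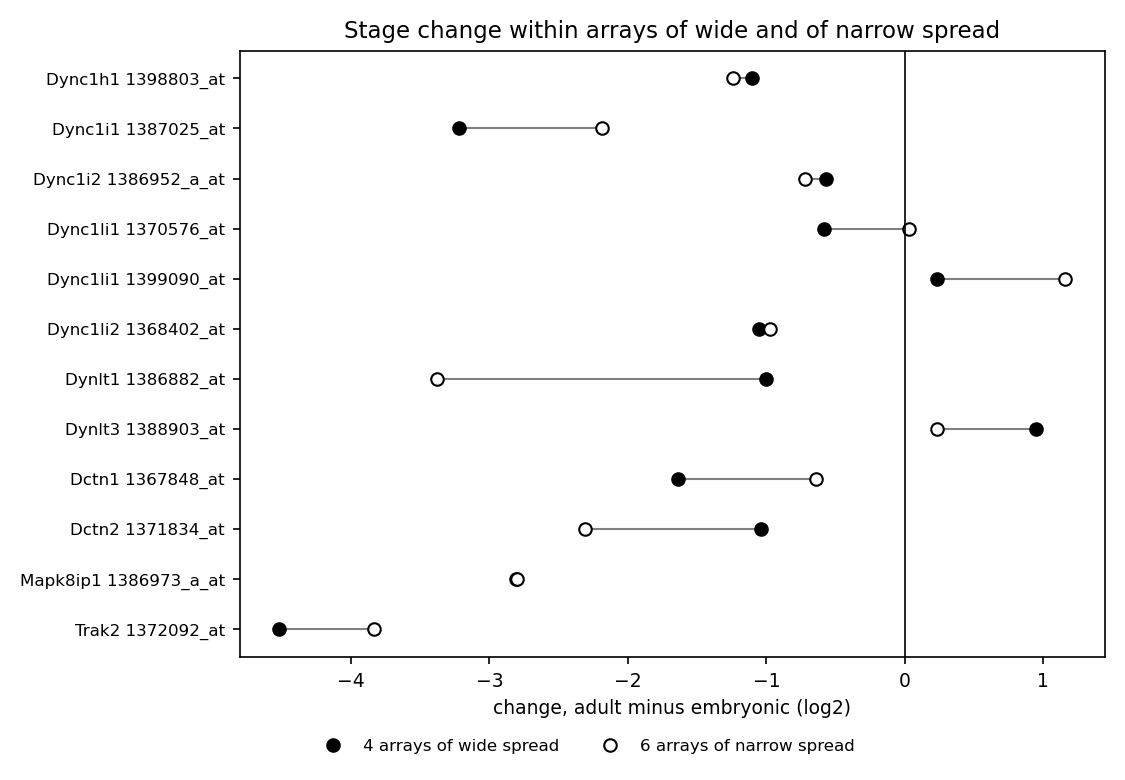
Change between stages (adult minus embryonic, log2; x axis) of each dynein and dynactin probe set, and of Trak2 and Mapk8ip1, within the 4 arrays of wide spread (filled points) and the 6 of narrow spread (open points). Values for Dynlt1 and Dctn2 are larger within the narrow arrays, at -3.38 and -2.31, those for Dync1i1 and Dctn1 within the wide arrays, at -3.22 and -1.64, and those for Mapk8ip1 are -2.81 and -2.80.

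Within each stage the wide arrays had the highest averages over the members. Averaged over the 10 probe sets, the levels were 7.60, 6.87, 7.07, 6.41 and 8.0 on embryonic arrays and 6.04, 5.99, 5.31, 6.54 and 7.26 on adult arrays. This did not hold for each member: embryonic Dynlt3 averaged 7.97 on the wide and 8.03 on the narrow arrays, and the weak Dync1li1 probe set 2.47 and 2.89 in the adult stage. Embryonic replicate 5 had the highest embryonic value for 7 of the 10 probe sets, and adult replicate 5 the highest adult value for 7. Adult replicate 3 had the lowest adult value for 5, and it was the array with the fewest probe sets above background, 7474. The same counts were not made over all probe sets, so they cannot be read as particular to the members. On single arrays 8 to 10 of the 10 probe sets were above background in embryonic samples and 7 to 9 in adult samples. The median change of the 10 was -1.02 within the wide arrays and -0.85 within the narrow arrays, against -0.06 and 0.02 over all probe sets. Over the 3254 probe sets above background on all 10 arrays, which hold 6 of the 10 members, these medians were 0.03 and -0.24. At an unadjusted p under 0.05, 2 of the 10 passed within the wide arrays, where 15.0% of all probe sets did, and 2 within the narrow arrays, where 10.1% did. With wide and narrow arrays as a block in one fit, 5 of the 10 had an unadjusted p under 0.05 (Dync1h1 beside the 4 named above), where 12.7% of all probe sets did, and 0 passed the threshold in limma, the lowest adjusted p being 0.054 for Dctn2.

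Whether related subunits changed unequally was asked by the difference of their probe sets on each array, compared between stages by a two-sided exact permutation test over 252 labellings. Of 5 planned pairs, 4 could be run, since Dynll1 had no value to set beside Dynll2. None of the 4 passed after adjustment over the 4 pairs. Dynlt1 minus Dynlt3 had the largest shift, -2.95 ± 0.85 (SE; 95% interval -5.08 to -1.14; exact permutation p = 0.024, adjusted p = 0.079), from differences of 1.88, 1.87, 0.52, -1.19 and 0.43 on embryonic arrays to -2.52, -3.22, -3.91, -0.85 and -0.74 on adult arrays. Apart from embryonic replicate 4, every embryonic difference lay above every adult one. Dync1li1 minus Dync1li2 had a shift of 1.79 ± 0.82 (95% interval 0.21 to 3.77; exact permutation p = 0.040, adjusted p = 0.079). Dync1i1 minus Dync1i2 had a shift of -1.94 ± 1.04 (95% interval -4.00 to 0.78; exact permutation p = 0.11, adjusted p = 0.15), and Dctn1 minus Dctn2 one of 0.76 ± 0.78 (95% interval -0.76 to 2.48; exact permutation p = 0.44, adjusted p = 0.44). The intervals are not adjusted for the number of pairs. Without embryonic replicate 4 the shifts were -3.42 for the Dynlt pair, 2.12 for the light intermediate chains and -2.85 for the intermediate chains. Their adjusted p values in the same exact test were then 0.016, 0.021 and 0.016. With any other single array left out, none of the pairs had an adjusted p under 0.05.

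**Figure D3:**
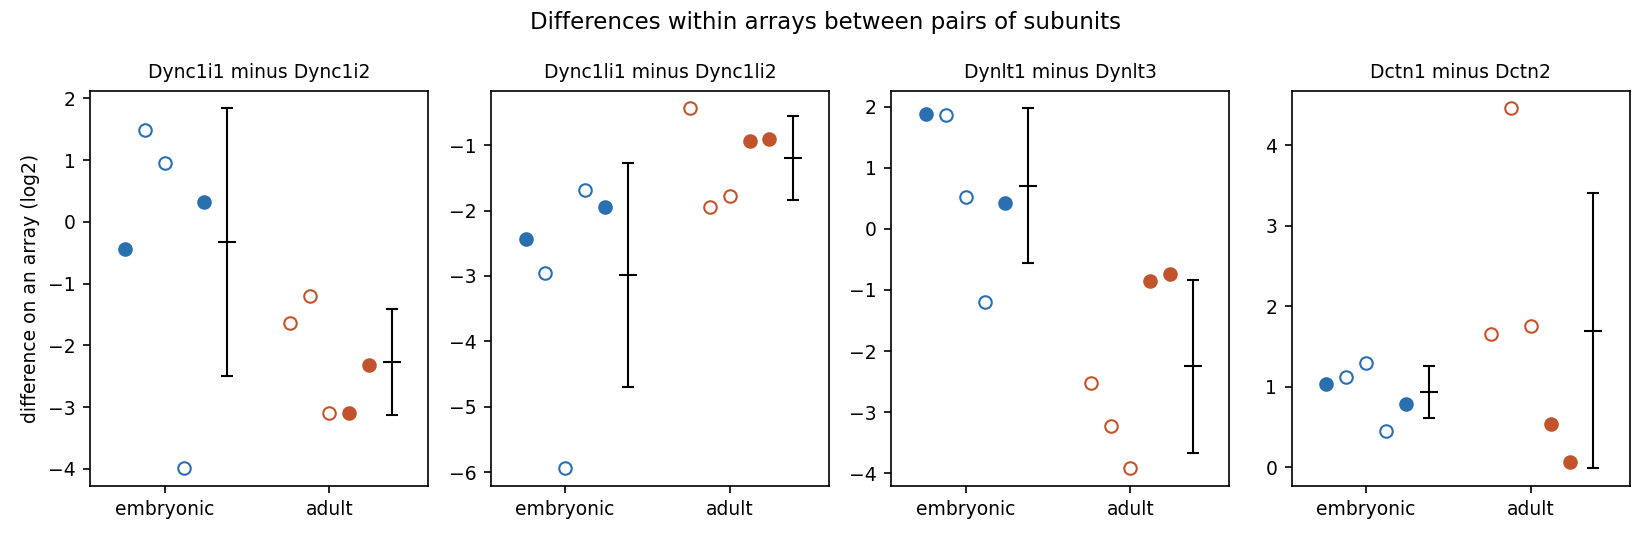
Difference between the probe sets of 2 subunits on each array (log2; y axis) in embryonic (blue) and adult (orange) samples, filled for arrays of wide spread and open for narrow, with the mean ± SD. Only the shift between stages can be read, since the level of a difference depends on the probes; the shift is -2.95 for Dynlt1 and Dynlt3 and 0.76 for Dctn1 and Dctn2.

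The remaining subunits of the motor and of dynactin were read in the same way. Of 13 listed genes 12 had probe sets, and 0 of their 18 probe sets passed the threshold in limma, with 1 at an unadjusted p under 0.05, where 9.84% of all were, and a median change of -0.44. The median was -0.02 within the wide arrays, -0.94 within the narrow arrays and -0.24 with cyclic loess scaling. That probe set belonged to Actr1a, the actin-related protein of the dynactin filament, which was at 8.27 ± 0.46 in embryonic and 5.98 ± 1.79 in adult axons, a change of -2.29 (95% interval -3.91 to -0.66; limma adjusted p = 0.25). It was -0.74 within the wide arrays and -3.32 within the narrow arrays. A second probe set of Actr1a had a change of -0.28 (limma adjusted p = 0.97). The brighter probe set of the light chain Dynll2 had a change of -1.03 (limma adjusted p = 0.60) and the capping subunit Capza1 one of 1.1 (limma adjusted p = 0.62).

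**Figure D4:**
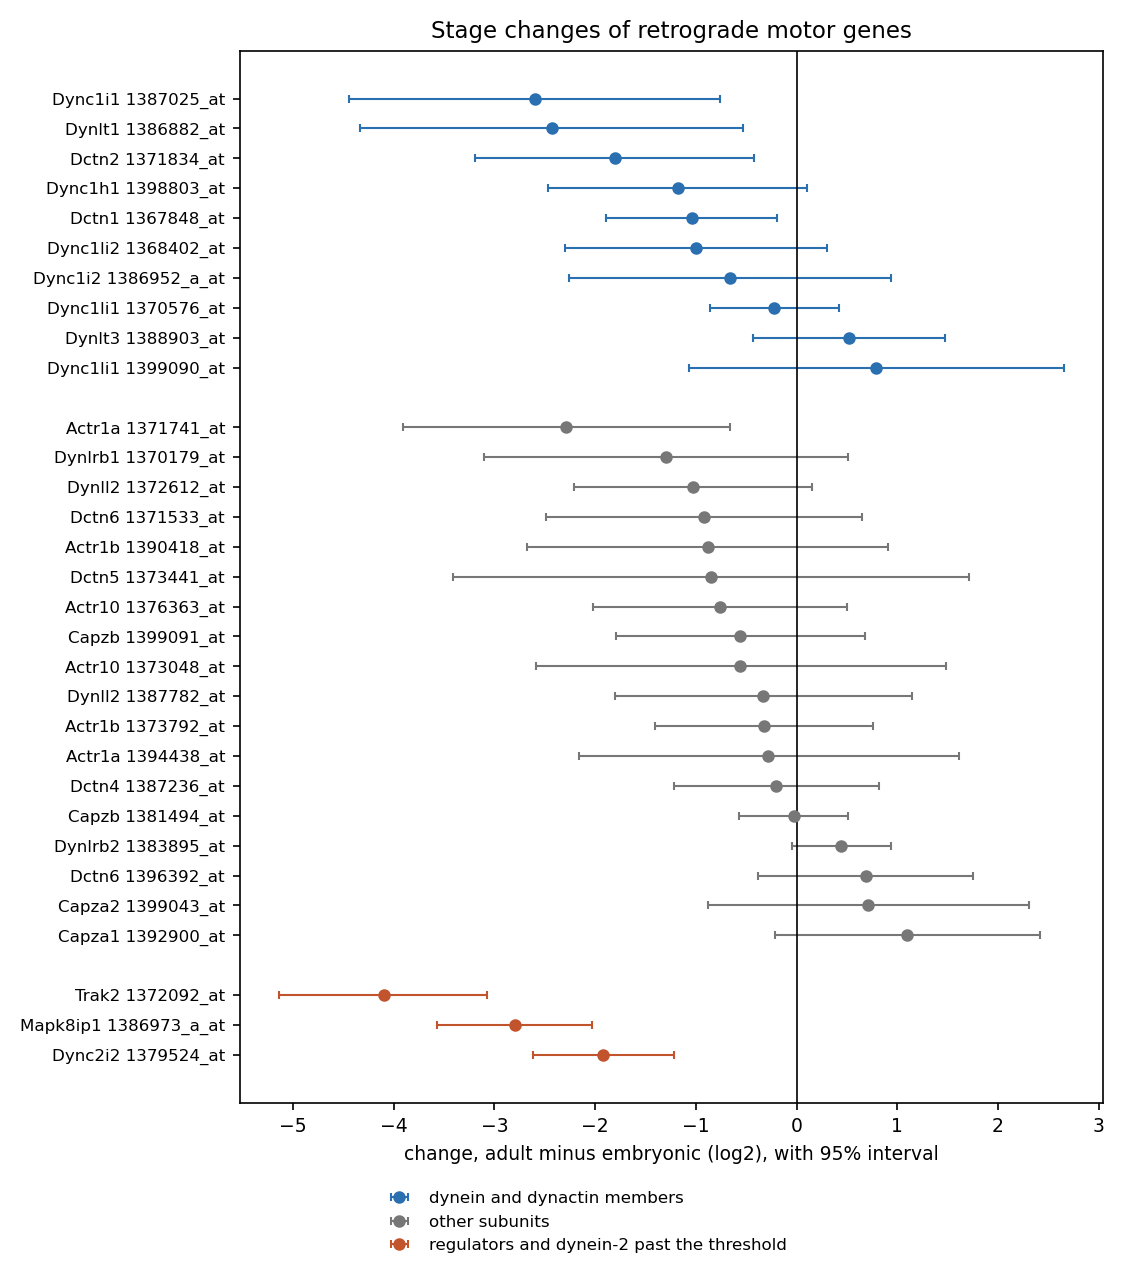
Change between stages (adult minus embryonic, log2; x axis) with 95% intervals for the dynein and dynactin members (blue), the other subunits (grey) and the probe sets of the regulator, adaptor and dynein-2 lists that passed the threshold (orange). The members run from -2.60 for Dync1i1 to 0.79 for Dync1li1, and the largest change past the threshold is -4.10 for Trak2.

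Among regulators and adaptors, which load dynein and tie it to cargo, 2 of 34 probe sets of 23 genes were lower past the threshold. Past it 0 were higher, where 0.457% of all probe sets were lower and 0.374% higher. The change was negative for 24 of the 34 and positive for 10, against 49.8% negative over all probe sets. At an unadjusted p under 0.05, 7 were lower and 1 higher, where 5.39% and 4.45% of all were. Trak2, which links mitochondria to kinesin and dynein, had embryonic values of 11.85, 11.78, 11.75, 10.01 and 11.30 and adult values of 6.55, 8.28, 7.23, 7.75 and 6.36. The stages did not overlap, and Trak2 fell by 4.10 on the log2 scale (change -4.10 ± 0.47, SE, n = 5; limma adjusted p = 0.0024). Its other probe set did not overlap between stages either, at 10.49 ± 1.01 and 5.94 ± 2.35, but did not pass (change -4.55; limma adjusted p = 0.072). The related Trak1 was at 7.84 ± 0.77 and 4.48 ± 1.63 (change -3.36; limma adjusted p = 0.065). Within the narrow arrays Trak1 passed the threshold (change -4.90; limma adjusted p = 0.014), and within the wide arrays it did not (change -1.05; limma adjusted p = 0.59). The other probe set of these lists past the threshold within the narrow arrays was of Snapin, an adaptor between dynein and late endosomes (1376366_at), at -3.62 (limma adjusted p = 0.0098), against 0.04 within the wide arrays and -2.15 over all arrays (limma adjusted p = 0.99 and 0.44). A second probe set of Snapin (1382006_at) had changes of -1.33 within the narrow arrays and -0.87 over all arrays (limma adjusted p = 0.53 and 0.75).

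Mapk8ip1, the scaffold JIP1 that couples vesicles to kinesin and to dynactin, had embryonic values of 10.14, 10.13, 9.78, 8.67 and 10.02 and adult values of 6.35, 7.26, 6.57, 7.12 and 7.42. No adult array reached the lowest embryonic one, and the change was -2.80 ± 0.35 (SE; limma adjusted p = 0.0047). Its second probe set was weak, above background on 2 embryonic arrays and 0 adult ones, and overlapped between stages (3.37 ± 0.36 and 2.70 ± 0.31, change -0.67; limma adjusted p = 0.38). Trak2 and Mapk8ip1 passed in each of the 10 fits that left out 1 array. Within the wide arrays and within the narrow arrays alone the changes were -4.52 and -3.83 for Trak2 and -2.81 and -2.80 for Mapk8ip1, with adjusted p values of 0.075 to 0.11. Pafah1b1, or Lis1, which helps dynein into its active form, had a probe set above background on all arrays that was at 6.79 ± 1.73 and 6.96 ± 1.24 (change 0.17, 95% interval -1.69 to 2.03; limma adjusted p = 0.98). Its partner Ndel1 was at 4.94 ± 1.13 and 5.89 ± 0.94 (limma adjusted p = 0.70).

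The motors of cilia form the remaining lists. Dynein-2, the retrograde motor of cilia, had 1 of 5 probe sets lower past the threshold, where 0.457% of all probe sets were. It was of Dync2i2, an intermediate chain, with embryonic values of 5.34, 5.24, 5.40, 6.09 and 6.0 and adult values of 3.36, 3.34, 3.51, 3.63 and 4.64. The stages did not overlap (change -1.92 ± 0.32, SE; limma adjusted p = 0.020), and Dync2i2 was above background on 2 of 5 adult arrays. It missed the threshold without adult replicate 1, 3 or 4 or embryonic replicate 5, at changes of -1.83, -1.87, -1.90 and -1.82 (limma adjusted p = 0.062, 0.053, 0.058 and 0.063). It also missed it with a trended, robust variance model, within the narrow arrays (change -2.17) and within the wide arrays (change -1.54), at limma adjusted p values of 0.099, 0.054 and 0.31. Axonemal dynein genes, which power beating cilia, had 0 of 14 probe sets past the threshold in limma, 1 at an unadjusted p under 0.05, where 9.84% of all were, and 9 above background on no array, as were 10186 of all 31042 probe sets, 32.8%.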

How the data were processed

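The authors deposited log2 expression values per probe set from Affymetrix Rat Genome 230 2.0 arrays, summarised by robust multi-array average (RMA) per the submitters' processing notes. The sources used here do not state the version, the options or whether the arrays were processed jointly. A base of 2 was inferred from the values' range. RMA compresses differences of weak probe sets. Precision is limited by the number of arrays.

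The fit used limma 3.58.1 (R 4.3.3; lmFit and eBayes, two-sided, adult minus embryonic) on all 31042 non-control probe sets and 10 arrays, with Benjamini-Hochberg adjustment over all of them, a threshold of 0.05 and no filter or pseudocount. Genes were named only from probe sets with a single symbol. Intervals are limma's 95% intervals, and those of subunit pairs come from inverting the exact permutation test, with each gene read by its probe set of highest mean. The fit was tested on simulated data. Alternatives were 3 scalings, a filter on weak probe sets, other variance models, blocks, background levels and leaving out each array.

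The members and gene lists were chosen with earlier results of these data known. Named were all member probe sets and the genes of the other lists past the threshold; Actr1a, Dynll2, Capza1, Trak1, Snapin, Pafah1b1, Ndel1 and the marker genes were chosen after their values were seen. Replicate numbers were not treated as pairs: deviations of same-numbered arrays correlated at -0.122 to 0.276.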

Additional observations from a re-analysis of the deposited data

Results flagged for a closer look

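In 4 of 26 groups of 5 arrays examined (13 probe sets in each stage) 1 array stood apart from the others, by a criterion that chance meets in about 1 in 20 groups. Dync1i2 was at 4.68 in embryonic replicate 2, where the nearest other embryonic array was at 7.19. Dync1li2 was at 8.07 in embryonic replicate 4, with the nearest at 9.73. Mapk8ip1 was at 8.67 in the same sample, with the nearest at 9.78. Dync2i2 was at 4.64 in adult replicate 5, with the nearest at 3.63.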

How the results depend on the processing

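Over 20 alternative fits the sign of a member's change differed from the reported one in 1 of 199 cases. This was the weak Dync1li1 probe set within the narrow arrays (0.03). Past the threshold was 1 case, Dync1i1 without embryonic replicate 4. The trended, robust variance model, the filter on weak probe sets and both blocks leave each change as it was. Those fits could not alter a sign. With 1 array left out, 0 to 1 members passed, 3 to 5 had an unadjusted p under 0.05, 2 to 4 probe sets of the other lists passed, and 150 to 339 of all probe sets did: 165 without adult replicate 1, 150 without adult replicate 4, 162 without embryonic replicate 3 and 153 without embryonic replicate 5. Of all probe sets 401 passed with wide and narrow arrays as a block, 449 with weak probe sets left out (fewer were tested) and 0 within the wide arrays alone, where 4657 had an unadjusted p under 0.05. The other lists had 5 past the threshold with array weights, 5 with weak probe sets left out and 0 within the wide arrays. Members with an unadjusted p under 0.05 numbered 2 within the wide and 2 within the narrow arrays. The cause of these differences was not tested. The shifts of the pairs with 1 array left out ranged from -3.42 to -2.53 (Dynlt1 minus Dynlt3), 1.06 to 2.12 (Dync1li1 minus Dync1li2), -2.85 to -1.49 (Dync1i1 minus Dync1i2) and 0.07 to 1.17 (Dctn1 minus Dctn2). With the replicate number as a block the changes of the members were the same by construction, 0 passed in limma, and the adjusted p of the pair tests could not reach 0.05, since the smallest p of that exact test is 0.062. Quantile scaling and cyclic loess gave member medians of -0.90 and -0.65.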
